A study of Mus musculus with 2 samples.

Results

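Mature Ms4a4b-positive thymocytes were a small class of T lineage cells in thymic stroma, 95 of 11774 cells that passed the cell filters. Library 1 held 8 of 3588 kept cells (0.223%, exact Clopper-Pearson 95% interval 0.0963 to 0.439%) and library 2 held 87 of 8186 (1.06%, 0.852 to 1.31%). Each member was chosen by its own counts. It had 500 or more genes, 1000 or more UMIs (unique molecules) and a mitochondrial share of no more than 10%, with at least 2 of the T cell genes Cd3e, Cd3d, Cd3g, Lck and Cd2. It also held at least 2 of the mature thymocyte genes Ms4a4b, Ms4a6b, Gimap4, Ccr7 and Inpp4b. Rag1, Aire and Epcam were at 0, and Col1a1, Col1a2 and Col3a1 together stayed under 20 UMIs per 10000.

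Both libraries came from mice of 1 genotype, E2F_M11, in which CRISPR-Cas9 removed 2 E2F sites from the proximal promoter of Foxn1, the transcription factor that directs thymic epithelial development. The deletion is therefore shared by every cell described here, and wild-type thymus was not analysed here. Digested thymus was depleted of CD45-positive cells with magnetic beads and profiled with 10x Genomics 3' single-cell chemistry. The labels do not say whether the libraries came from separate animals, and the sources used here give no strain, age or sex.

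Thymocytes that pass positive selection shut down antigen receptor gene rearrangement, silence either CD4 or CD8 and become quiescent single-positive cells. They then turn on the cytokine receptor and survival genes of naive T cells and leave the thymus along a sphingosine-1-phosphate gradient, sensed by S1PR1. E2F transcription factors, held in check by the retinoblastoma family, drive the genes of DNA replication and are low in resting lymphocytes.

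Promoters of the genes at the centre of the selection and of the cell cycle results are printed for reference to the levels given later, since E2F sites are what the mice lack at Foxn1. The E2F letters searched were TTTCCCGC, TTTGGCGC and their reverse complements GCGGGAAA and GCGCCAAA, which covers both strands. They occur in 514 of 32851 mouse promoters of the same length (1.56%). Capitals mark a match. The sequences are from RefSeq on GRCm38.p6, 250 bases before to 50 bases after the transcription start, 5′ to 3′ on the gene's strand.
Ms4a4b, chr19:11443308-11443607, plus strand: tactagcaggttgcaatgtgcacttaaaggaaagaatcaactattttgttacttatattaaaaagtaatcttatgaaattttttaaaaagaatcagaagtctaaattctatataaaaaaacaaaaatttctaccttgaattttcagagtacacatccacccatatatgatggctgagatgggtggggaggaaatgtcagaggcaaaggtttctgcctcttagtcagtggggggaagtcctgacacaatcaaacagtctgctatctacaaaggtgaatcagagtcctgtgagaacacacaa
Mcm3, chr1:20820263-20820562, minus strand: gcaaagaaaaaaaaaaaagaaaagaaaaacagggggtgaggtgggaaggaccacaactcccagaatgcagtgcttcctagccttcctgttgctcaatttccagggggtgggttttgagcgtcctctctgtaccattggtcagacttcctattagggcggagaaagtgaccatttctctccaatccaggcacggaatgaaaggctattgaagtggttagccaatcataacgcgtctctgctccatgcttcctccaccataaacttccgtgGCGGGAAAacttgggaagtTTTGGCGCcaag
Mcm6, chr1:128359656-128359955, minus strand: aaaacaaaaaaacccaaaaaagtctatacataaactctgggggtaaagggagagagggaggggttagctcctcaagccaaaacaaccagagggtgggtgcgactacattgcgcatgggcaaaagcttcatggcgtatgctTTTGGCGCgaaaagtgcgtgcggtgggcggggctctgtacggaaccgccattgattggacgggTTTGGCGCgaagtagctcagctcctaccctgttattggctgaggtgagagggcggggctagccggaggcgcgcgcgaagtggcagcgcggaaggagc
E2f2, chr4:136172024-136172323, plus strand, the upstream of its listed starts: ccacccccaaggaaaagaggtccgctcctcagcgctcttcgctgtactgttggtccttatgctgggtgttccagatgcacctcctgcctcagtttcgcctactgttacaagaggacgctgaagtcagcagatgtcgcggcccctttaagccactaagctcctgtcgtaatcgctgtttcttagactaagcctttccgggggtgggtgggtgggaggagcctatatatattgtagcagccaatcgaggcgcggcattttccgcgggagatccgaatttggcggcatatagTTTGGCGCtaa
Mcm3 and Mcm6, subunits of the replicative DNA helicase, carry 2 matches each, and E2f2, an activating E2F, carries 1. The letters were not in this window of Ms4a4b, nor in those of the other 3 mature genes of the selection that were found in the promoter table. A match describes letters, not a bound site.

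The T cell filter kept 354 cells in library 1 and 3410 in library 2, and 19 and 187 of these also held 2 or more mature genes. Requiring Rag1 at 0 then removed 6 cells in library 1 and 76 in library 2, the Aire and Epcam condition removed 4 and 16, and the collagen limit removed 1 and 8. Members therefore made up 2.26% of the cells with 2 or more T cell genes in library 1 (0.981 to 4.40%) and 2.55% in library 2 (2.05 to 3.14%), and these intervals, like all others here, cover counting error only. The share moved with the cell filter in library 2: when cells needed 2000 UMIs and no more than 5% mitochondrial UMIs it was 2.33% in library 1 and 5.03% in library 2. CD45 depletion removes T cells, so none of these is a share of the thymus, although members held Ptprc, the gene of CD45, at 1199 and 1177 CPM. The libraries had 5110 and 19163 barcodes with 41075328 and 42583831 UMIs, and 30 barcodes occurred in both, none of them a member.

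Members were compared with 2 other thymocyte classes of the same libraries. Resting Rag1-positive thymocytes, 70 cells in library 1 and 549 in library 2, held Rag1, fewer than 2 mature genes and fewer than 3 of 10 mitotic genes. Dividing thymocytes, 9 and 839 cells, held at least 3 of those mitotic genes and were not members. The median UMI count of a member was 4982 in library 1 and 4735 in library 2, against 2408.5 and 1785 in resting Rag1-positive cells and 11306 and 2284 in dividing cells. Levels are given as CPM, the UMIs of a gene per 1000000 UMIs of a class within a library, with exact Poisson 95% intervals. Cells of 1 library are not replicates, and the selection read the same counts, so every difference between these classes is a description without a test.

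Ms4a4b (chr19:11443553-11467055, plus strand, mm10), a tetraspanning membrane protein of T cells, was detected in 6 of 8 members in library 1 and 61 of 87 in library 2. The label therefore does not hold for every member. Its level was 1105 CPM in library 1 members (812 to 1470) and 718 CPM in library 2 members (646 to 797), against 17.0 and 31.2 CPM in resting Rag1-positive cells and 0 and 9.58 CPM in dividing cells. Fibroblast-gated cells, which should lack it, had 1.41 and 5.08 CPM, with a UMI in 1.36% and 2.16% of cells at median depths of 9252 and 4355.5 UMIs. Members were above this level in both libraries, but the selection read Ms4a4b, so the gap is partly built in and is not a finding.

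The other 4 genes used for selection also separated the classes in both libraries. Ms4a6b, a neighbouring family member (chr19:11516512-11531256, plus strand), reached 282 and 359 CPM in members of libraries 1 and 2, against 22.6 and 32.8 CPM in resting Rag1-positive cells. Gimap4, a GTPase that regulates lymphocyte survival (chr6:48684549-48692060, plus strand), reached 282 and 253 CPM, against 11.3 and 7.99 CPM. Ccr7, the receptor that guides thymocytes into the medulla (chr11:99144196-99155077, minus strand), reached 165 and 357 CPM, against 17.0 and 8.79 CPM. Inpp4b, a phosphoinositide phosphatase (chr8:81342556-82127914, plus strand), reached 447 and 218 CPM, against 28.3 and 19.2 CPM. These values chose the cells and are not a finding.

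Cd5 was a marker of the label that the selection did not read. Cd5 encodes a receptor that dampens antigen receptor signals and is set by selection (chr19:10717116-10739002, minus strand). It was found in 6 of 8 and 43 of 87 members, at 259 CPM in library 1 (129 to 463) and 206 CPM in library 2 (168 to 249). Resting Rag1-positive cells had 96.2 and 115 CPM and dividing cells 31.6 and 39.8 CPM. Members were highest in both libraries, but against resting cells the difference in log2(CPM + 10) was 1.34 in library 1 and 0.78 in library 2, so 2-fold was not passed in both. In the core members defined later it was passed, at 1.79 and 1.06.

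**Figure D1:**
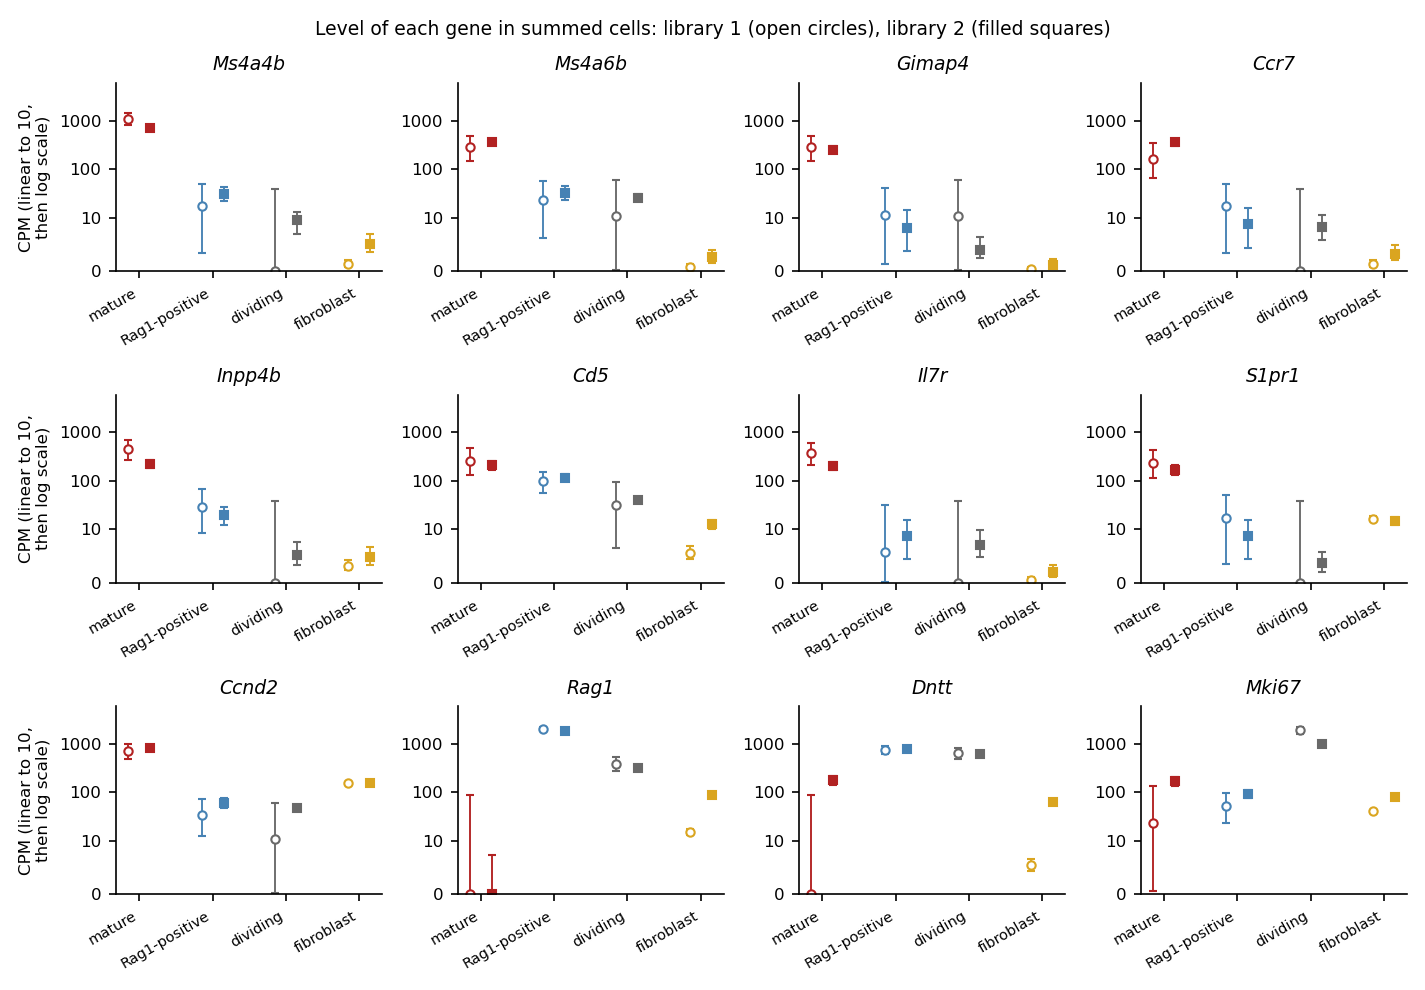
CPM of 12 genes in mature, resting Rag1-positive, dividing and fibroblast-gated cells, with library 1 as open circles, library 2 as filled squares and bars for exact Poisson 95% intervals; the axis is linear to 10 CPM and logarithmic above. Ms4a4b, Il7r and Ccnd2 are higher in mature cells than in the other 3 classes in both libraries, whereas Rag1 is at 0 by selection and Mki67 is highest in dividing cells.

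Of the members, 3 in library 1 and 29 in library 2 held exactly 2 mature genes, the fewest allowed, and 16 in library 2 held all 5. Just inside the limit, the 29 library 2 members with 2 mature genes had Ms4a4b at 109 CPM, Gimap4 at 98.9 CPM and Ccr7 at 188 CPM. Just outside it, 117 library 2 cells with 1 mature gene and Rag1 at 0 had Ms4a4b at 63.4 CPM, Gimap4 at 52.9 CPM and Ccr7 at 33.8 CPM. Their median depths were 4300 and 1856 UMIs. Il7r, which the selection did not read, was at 193 CPM inside the limit (137 to 264) and 48.6 CPM outside it (30.8 to 73.0).

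Not every member was a resting T cell. In library 2, 14 of 87 members (16.1%) also held at least 3 mitotic genes, and 3 of these had 49196, 37889 and 14054 UMIs; library 1 had none. In each library 1 further member held 2 or more endothelial genes. The one in library 1 had 11718 UMIs, 27.6% of that library's member UMIs, with 63 endothelial UMIs from 5 genes and none from the 6 leukocyte genes Ptprc, Cd52, Laptm5, Ptprcap, Coro1a and Cd53. At least 2 of those leukocyte genes were found in 6 of 8 and 86 of 87 members. The 79 members without the mitotic and endothelial cells, 7 in library 1 and 72 in library 2, are called core members and their values are given where they differ.

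Across all genes, 8338 had at least 20 UMIs over the 4 sums of members and resting Rag1-positive cells. Members were past 2-fold higher in both libraries for 180 genes (2.16%) and past 2-fold lower for 478 (5.73%), on the log2(CPM + 10) scale, which understates the change of low genes. When each cell was thinned to 1000 UMIs the counts were 114 and 695, and the higher share of the calls was 14.1% against 27.4%. The median gene differed by -0.39 in library 1 and -0.18 in library 2. Against dividing cells, 316 of 10022 genes (3.15%) were higher in members and 411 (4.1%) lower. Core members gave 196 higher (2.42%) and 660 lower (8.16%) against resting Rag1-positive cells, and 441 higher (4.43%) and 753 lower (7.57%) against dividing cells. Many of these genes rest on few UMIs. Where the counting intervals of the classes had to lie apart in both libraries, members were higher for 172 genes (2.06%) and lower for 143 (1.72%) against resting Rag1-positive cells, so the excess of lower genes was not seen by that rule. Against dividing cells it gave 146 higher (1.46%) and 244 lower (2.43%). In core members it gave 181 higher (2.24%) and 98 lower (1.21%) against resting cells, and 168 higher (1.69%) and 186 lower (1.87%) against dividing cells.

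Outside the selection genes, the largest differences from resting Rag1-positive cells on the higher side included Slfn1, a schlafen gene of quiescent T cells, Il7r, Nkg7, Ccnd2, Cd53, Ctsw, Cd40lg and Bcl2, together with the less characterised Gm8369 and 9930111J21Rik2. Slfn1 had 259 and 118 CPM in members, against 0 and 2.40 CPM in resting Rag1-positive cells, and was found in 4 of 8 and 30 of 87 members. Cd53, a leukocyte tetraspanin, had 165 and 212 CPM, against 0 and 10.4 CPM. A count of 0 allows up to 17.0 CPM in the resting cells of library 1 and 70.5 CPM in its 8 members. On the lower side stood Endou, Glcci1, Ly6d, Dntt, Chrna9, Rapgef3, Arpp21, Tctex1d1 and Spo11, and the globin gene Hba-a1. Hba-a1 was at 0 and 73.8 CPM in members, against 22.6 and 4573 CPM in resting Rag1-positive cells, and Dcn, a fibroblast gene, was at 70.5 and 75.8 CPM, against 362 and 1084 CPM. The resting class of library 2 thus carried more erythroid and stromal RNA. When cells with 2 or more genes of another lineage were left out of every class, 463 of 6448 tested genes were lower. Of these, 273 were among the 478. The part of free RNA in the cells that stayed was not tested.

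**Figure D2:**
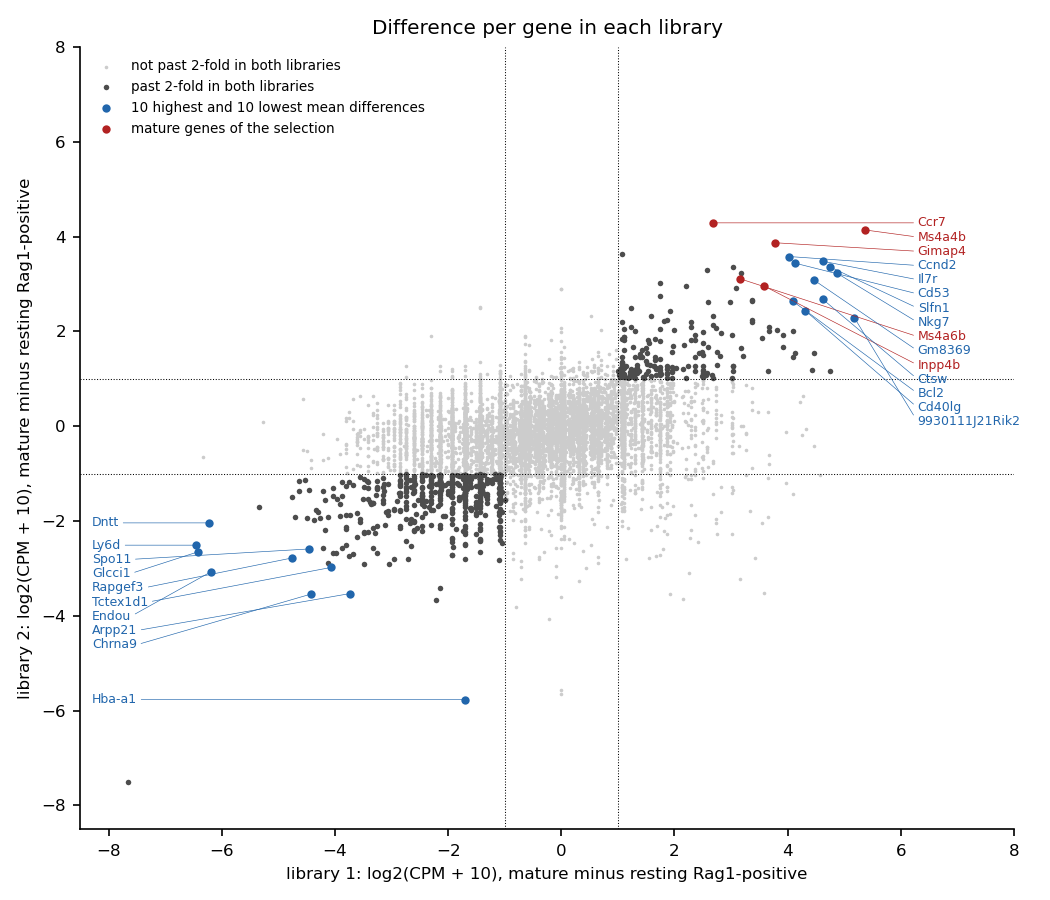
Difference in log2(CPM + 10), mature minus resting Rag1-positive, for 8338 genes in library 1 (x axis) and library 2 (y axis), with dotted lines at 2-fold. The 5 mature genes of the selection (red) and the 10 highest and 10 lowest other genes (blue) are named; the unnamed point at the lower left is Rag1, which the selection set to 0 in members.

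Of 13 survival and interleukin-7 genes tested against resting Rag1-positive cells, 3 were past 2-fold higher in members and 2 lower, beside 2.16% and 5.73% of all genes. Il7r (chr15:9505788-9530176, minus strand), the receptor chain for the cytokine that keeps naive T cells alive, was at 376 CPM in library 1 members (215 to 611) and 200 CPM in library 2 members (162 to 243). Resting Rag1-positive cells had 5.66 and 8.79 CPM and dividing cells 0 and 7.02 CPM, so the counting intervals of the classes did not overlap in either library. The log2 differences from resting cells were 4.62 and 3.48.

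Bcl2, the survival protein downstream of that receptor, was at 353 and 335 CPM in members, against 11.3 and 45.6 CPM in resting Rag1-positive cells. Bcl2l1, which encodes BCL-XL, the survival protein of double-positive thymocytes, went the other way, with 23.5 and 29.9 CPM in members and 96.2 and 87.1 CPM in resting cells. Its level in library 1 members is 1 UMI, and with cells thinned to 1000 UMIs its mean log2 difference was -0.36 in place of -1.47, short of 2-fold, while that of Bcl2 was 4.11. Fibroblast-gated cells had Bcl2l1 at 20.1 and 23.7 CPM. The pro-death gene Bcl2l11 was also lower, at 94.1 and 77.8 CPM in members and 260 and 201 CPM in resting cells, although core members did not pass 2-fold for it (-0.95 and -0.96). Foxo1, a transcription factor that induces Il7r and Klf2, was at 212 and 108 CPM in members, against 17.0 and 39.2 CPM.

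Genes of thymic exit were past 2-fold higher in members for 4 of 16 tested and lower for 2, beside 2.16% and 5.73% of all genes. S1pr1 (chr3:115710433-115715072, minus strand), the exit receptor, was at 235 CPM in library 1 members (113 to 432) and 168 CPM in library 2 members (134 to 208). Resting Rag1-positive cells had 17.0 and 8.79 CPM and dividing cells 0 and 3.62 CPM. Itgb7, an integrin chain for gut homing, was at 188 and 91.8 CPM in members, against 22.6 and 6.40 CPM in resting cells. S1pr4, a lipid receptor related to S1pr1, was at 23.5 and 31.9 CPM, against 5.66 and 9.59 CPM, but with 1 UMI in each class of library 1.

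The 2 lower genes of that list act in the cortex or on the way to the medulla. Ccr9, a chemokine receptor of double-positive thymocytes, was at 329 and 415 CPM in members, against 1454 and 1012 CPM in resting Rag1-positive cells. Plxnd1, a semaphorin receptor of cortical thymocytes, was at 47.0 and 14.0 CPM, against 175 and 125 CPM. Core members kept the direction for Ccr9 (-1.66 and -0.89) but passed 2-fold in library 1 alone.

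Klf2, the transcription factor that induces S1pr1, differed between the libraries. It was found in 2 of 8 members at 94.1 CPM in library 1 (25.6 to 241) and in 62 of 87 members at 858 CPM in library 2 (779 to 943). Resting Rag1-positive cells had 62.3 and 162 CPM, so the log2 difference was 0.53 in library 1 and 2.33 in library 2. Fibroblast-gated cells themselves had 268 and 319 CPM, and the part of free Klf2 in the member levels was not tested. Among the 72 core members of library 2, all 29 cells with S1pr1 also held Klf2 (100%, 88.1 to 100%), against 26 of 43 cells without S1pr1 (60.5%, 44.4 to 75.0%). Deeper cells hold more of any gene, and this was not corrected for depth.

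Of 12 tested genes of recent selection, 2 were past 2-fold higher in members and 1, Bcl2l11, lower, beside 2.16% and 5.73% of all genes. Itm2a, a membrane protein induced by positive selection, was at 141 and 327 CPM in members, against 22.6 and 33.6 CPM in resting Rag1-positive cells. Fibroblast-gated cells had Itm2a at 117 and 142 CPM, so in library 1 the members were not apart from that level. Whether that level is free RNA or the fibroblasts' own was not tested. Izumo1r, which encodes folate receptor 4, was at 94.1 and 35.9 CPM in members, against 0 UMIs in the resting cells of either library. Cd69, an activation antigen that retains thymocytes by pulling S1PR1 from the surface, was at 188 and 164 CPM, against 73.6 and 91.1 CPM, and did not pass 2-fold in library 2 (1.25 and 0.78). Nr4a1, an immediate target of the antigen receptor, was at 141 and 174 CPM, against 96.2 and 102 CPM.

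Cell by cell, genes of exit and of selection were compared in the core members. In library 2, Cd69 was found in 12 of 29 core members with S1pr1 (41.4%, 23.5 to 61.1%), against 13 of 43 without it (30.2%, 17.2 to 46.1%), so the intervals overlap widely. Itm2a was found in 28 of 55 core members with Klf2 (50.9%, 37.1 to 64.6%), against 13 of 17 without it (76.5%, 50.1 to 93.2%), which also overlap. The sum of S1pr1, Klf2 and Il7r had a median of 15.1 UMIs per 10000 in a library 2 core member (0 to 51.7). The sum of Cd69, Itm2a, Nr4a1 and Tox had a median of 6.61 (0 to 63.8). Klf2 and Itm2a had a UMI in 47.5% and 35.5% of the fibroblast-gated cells of library 2. Whether these UMIs are free RNA or the fibroblasts' own was not tested. A UMI of either in a member was therefore not read as expression in that cell.

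**Figure D3:**
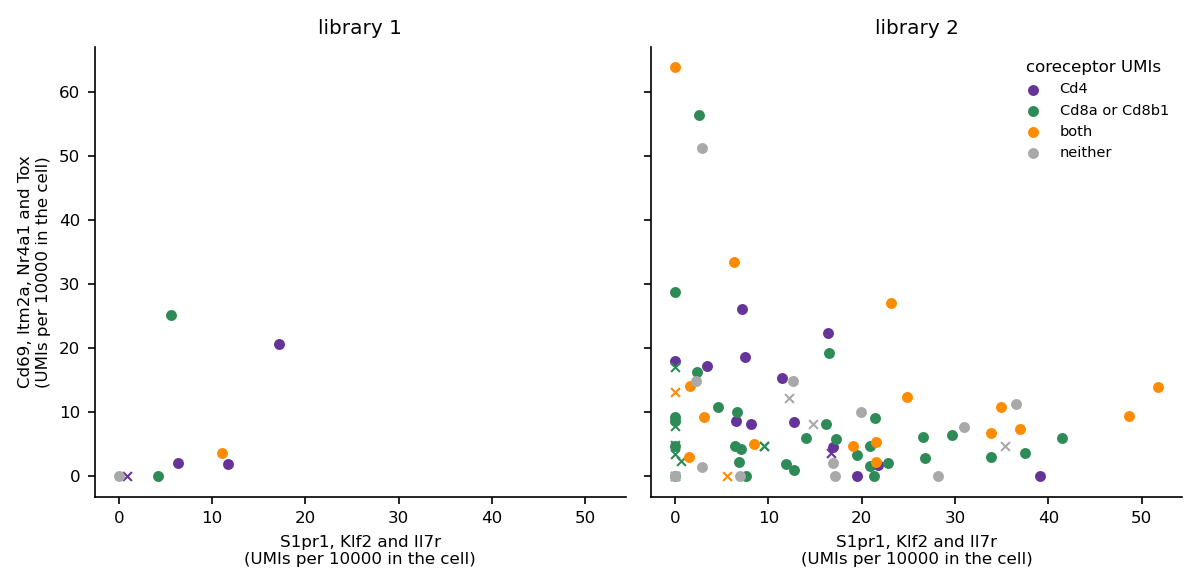
Each of the 95 members by its UMIs per 10000 for S1pr1, Klf2 and Il7r (x axis) and for Cd69, Itm2a, Nr4a1 and Tox (y axis), coloured by coreceptor UMIs; circles are core members and crosses are members with mitotic or endothelial genes. The library 2 cells above 50 on the y axis lie low on the x axis.

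Of 12 tested genes of the immature double-positive list, 10 were past 2-fold lower in members and none higher, beside 5.73% and 2.16% of all genes, with a median mean log2 difference of -2.36 against -0.29 for all genes tested. Rag2, partner of the excluded Rag1 in receptor gene rearrangement, was at 0 and 14.0 CPM in members, against 164 and 80.7 CPM in resting Rag1-positive cells. Aqp11, an aquaporin gene, was at 23.5 and 71.8 CPM, against 577 and 595 CPM, and Themis, a signalling adaptor of selection, was at 188 and 222 CPM, against 1155 and 831 CPM. Since Rag1 helped to define both classes, this direction was built into the choice of cells.

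What remained of this list is given beside the level in fibroblast-gated cells, and the part of free RNA in it was not tested. Arpp21, a gene of unclear thymic role that is abundant in double-positive cells, was at 130 and 67.7 CPM in core members, against 1687 and 1118 CPM in resting Rag1-positive cells and 42.6 and 108 CPM in fibroblast-gated cells. Dntt, the polymerase that adds bases at receptor junctions, was found in 27 of 87 members of library 2 at 178 CPM and in none of 8 in library 1. Core members of library 2 had Dntt at 95.9 CPM (66.4 to 134), against 762 CPM in resting cells and 63.5 CPM in fibroblast-gated cells. Of the 34 Dntt UMIs in these core members, 16 came from 1 cell. Rag1 itself had a UMI in 13.2% of the fibroblast-gated cells of library 1 and 31.6% of those of library 2. Requiring it at 0 can therefore remove mature cells that picked up free Rag1, and how many was not tested.

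None of 18 tested antigen receptor and signalling genes was past 2-fold higher against resting Rag1-positive cells and 4 were lower, beside 2.16% and 5.73% of all genes. With 18 genes, none higher was not read as a result. The 4 were Cd4, Cd8a, Cd8b1 and Trbc1, the beta chain constant gene, which did not pass after thinning (-0.86). In core members Cd5 and the kinase gene Fyn were higher, and Thy1 joined the 4 lower genes, beside 2.42% and 8.16% of all genes. Cd8b1 was at 94.1 and 355 CPM in members, against 1981 and 1389 CPM, and Cd4 was at 165 and 126 CPM, against 600 and 374 CPM. Trac, the alpha chain constant gene, was at 423 and 519 CPM, against 413 and 298 CPM, and passed 2-fold against dividing cells, which had 105 and 86.0 CPM. Of the genes used as T cell criteria, Cd2, an adhesion receptor, was higher in members (2.30 and 2.19) and Lck, the kinase bound to the coreceptors, was lower (-1.70 and -1.10).

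Coreceptor UMIs divided the members. In library 1, 4 held Cd4 alone, 2 held Cd8a or Cd8b1 alone, 1 held both and 1 neither. In library 2 these groups had 14, 39, 18 and 16 cells. Among its core members, 13 were Cd4-gated (18.1%, 9.98 to 28.9%), 31 were Cd8-gated (43.1%, 31.4 to 55.3%), 16 held both (22.2%, 13.3 to 33.6%) and 12 neither (16.7%, 8.92 to 27.3%). Free RNA touches these groups, since Cd8b1, Cd8a and Cd4 had a UMI in 28.6%, 22.6% and 11.8% of fibroblast-gated cells of library 2, at a median depth close to that of the core members, 4829.5 UMIs. The number of Cd4-gated against Cd8-gated cells was therefore not read as lineage output.

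No test was made between Cd4-gated and Cd8-gated members, because library 1 had 4 and 2 such cells and a sum of fewer than 10 cells was not to be tested. The values of library 2 core members are given with counting intervals. Runx3, the transcription factor that sets CD8 identity, had 0 UMIs in the 13 Cd4-gated core members (0 to 60.2 CPM), against 271 CPM in the 31 Cd8-gated ones (196 to 366). Nkg7, a cytotoxic granule protein, was at 0 against 303 CPM (223 to 402), and Itgae, the integrin CD103, at 0 against 94.7 CPM (53.0 to 156). Ctsw, a protease of cytotoxic cells, was at 32.6 CPM in Cd4-gated cells (3.95 to 118) and 177 CPM in Cd8-gated cells (117 to 256). Of the 10 genes of that list, Ccl5 and Tbx21 had 0 UMIs in both groups, and Eomes and Cxcr3 had 1 UMI each, in Cd8-gated cells. In core members the intervals of Runx3 and Nkg7 lay apart, while those of Itgae (0 to 60.2 in Cd4-gated cells) and Ctsw overlap. Over all 14 Cd4-gated and 39 Cd8-gated members of library 2, of these genes only Runx3 stood apart. It was at 14.3 CPM, from 1 UMI, and 167 CPM (122 to 224). Nkg7 was then at 71.8 CPM (23.3 to 167), with all its UMIs from 1 cell, and 182 CPM (135 to 241). Ctsw was at 43.0 CPM (8.88 to 126) and 104 CPM (69.1 to 150), and Itgae at 0 and 55.7 CPM, so the intervals of these 3 genes overlap.

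Of the CD4 lineage genes given here, Cd40lg alone had intervals that lay apart. Zbtb7b, which encodes ThPOK, the factor that sets CD4 identity, was at 81.6 CPM in Cd4-gated core members (26.5 to 190) and 25.3 CPM in Cd8-gated ones (6.88 to 64.7), so the intervals overlap. Cd40lg, the CD40 ligand of helper cells, was at 163 CPM (78.2 to 300) and 31.6 CPM (10.3 to 73.7), which do not overlap. Gata3, a CD4-biased factor, was at 114 CPM (45.9 to 235) and 63.1 CPM (30.3 to 116). Izumo1r went against the list's name, with 0 UMIs in Cd4-gated cells and 37.9 CPM in Cd8-gated cells (13.9 to 82.5).

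Beyond the lineage lists, Itm2a was at 653 CPM in Cd4-gated (466 to 889) and 253 CPM in Cd8-gated core members (180 to 344). More general genes were also higher in Cd4-gated core members, with intervals apart. Bcl11b was at 1061 CPM (819 to 1352) and 606 CPM (491 to 740), and Ets1 at 1387 CPM (1108 to 1715) and 764 CPM (634 to 913). Satb1 was at 2268 CPM (1907 to 2678) and 1629 CPM (1436 to 1840), and Itgb2 at 294 CPM (174 to 464) and 88.4 CPM (48.3 to 148). Id2, an inhibitor of E proteins, was at 245 CPM (137 to 404) and 94.7 CPM (53.0 to 156), which overlap. Ms4a4b went the other way, at 490 CPM (330 to 699) and 1155 CPM (994 to 1335), whereas Ms4a6b was at 441 and 442 CPM. Over all members of library 2 Ms4a4b was at 474 CPM (326 to 665) and 705 CPM (609 to 813), which overlap. The intervals of Cd40lg, Itm2a, Bcl11b, Ets1, Satb1 and Itgb2 still lay apart there, and those of Id2 lay apart only over all members. Cd69 was at 114 CPM (45.9 to 235) and 227 CPM (159 to 315), and S1pr1 at 163 CPM (78.2 to 300) and 265 CPM (191 to 358), both with overlapping intervals.

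Library 1 did not show this division. Its 3 Cd4-gated core members had Runx3 at 319 CPM (104 to 744), Nkg7 at 446 CPM and Klrd1 at 446 CPM, each Nkg7 and Klrd1 UMI coming from 1 cell. Its 2 Cd8-gated cells had Runx3 at 239 CPM (28.9 to 862), Nkg7 at 239 CPM and Klrd1 at 119 CPM. Zbtb7b had 0 UMIs in the Cd4-gated cells of library 1, which allows up to 191 CPM. At 3 and 2 cells a difference of the size seen in library 2 was not detectable.

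**Figure D4:**
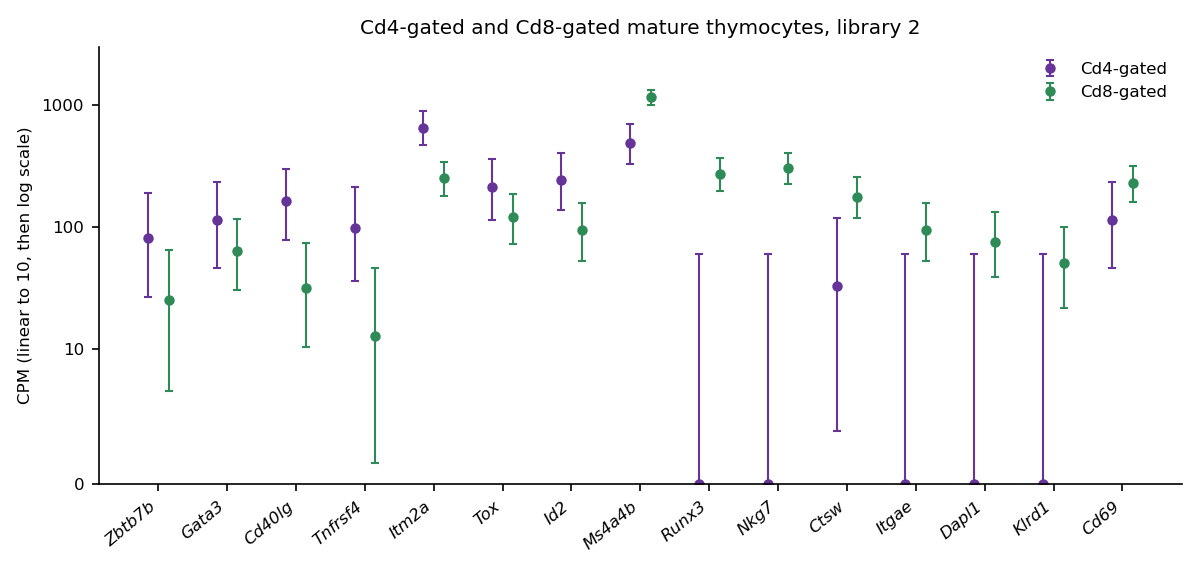
CPM of 15 genes in the 13 Cd4-gated (purple) and 31 Cd8-gated (green) core members of library 2, with exact Poisson 95% intervals; the axis is linear to 10 CPM and logarithmic above. Runx3, Nkg7, Itgae, Dapl1 and Klrd1 are at 0 in Cd4-gated cells, and Cd40lg, Itm2a and Id2 are higher there than in Cd8-gated cells. The Id2 intervals overlap.

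Against resting Rag1-positive cells, 4 of the 6 tested CD8 lineage genes were past 2-fold higher in members, namely Runx3, Nkg7, Klrd1 and Ctsw, and of the CD4 lineage genes 3 of 7, namely Zbtb7b, Cd40lg and Izumo1r, beside 2.16% of all genes. Zbtb7b was at 23.5 and 37.9 CPM in members, against 5.66 and 1.60 CPM, with 1 UMI in each class of library 1, and Cd40lg at 188 and 61.9 CPM, against 0 and 3.20 CPM. Runx3 differed by 2.69 and 2.14 in log2(CPM + 10). Among 17 T lineage transcription factors, Runx3, Zbtb7b, Foxo1 and Id2 were higher and Id3 and Ikzf3 lower, beside 2.16% and 5.73% of all genes. Id2 was at 165 and 93.8 CPM, against 45.3 and 29.6 CPM, but its sign turned when cells were thinned to 1000 UMIs (-0.83). Tcf7, which encodes TCF1, was at 188 and 712 CPM, against 1596 and 1370 CPM, and did not pass 2-fold in library 2 (-3.02 and -0.93).

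Foxp3 and Zbtb16, taken as defining genes of regulatory and innate-like T cells, were at or near 0. Their lists as a whole were not. A defining gene of gamma-delta T cells, Trdc, was found in library 2. Foxp3, which defines regulatory T cells, had 1 UMI in 87 members of library 2 and 0 in library 1, and none of 6 tested regulatory genes passed 2-fold in members. In core members 1 did, Tnfrsf18, a tumour necrosis factor receptor. The regulatory list summed to 682 and 477 CPM in members, against 255 and 346 CPM in resting Rag1-positive cells, and its part in the results was not tested. Zbtb16, the factor of innate-like T cells, had 0 UMIs in members of both libraries. The natural killer and innate-like list had 2 of 3 tested genes higher, Nkg7 and Klrd1, which are also in the CD8 list. It summed to 1152 and 303 CPM in members, against 73.6 and 99.9 CPM in resting cells and 73.8 and 204 CPM in dividing cells. Core members had 1590.5 and 203 CPM. Nkg7 gave 12 of the list's 49 UMIs in library 1 members and 61 of 152 in library 2. The 49 UMIs came from 3 cells, and whether members include innate-like cells was not tested. Trdc, the delta chain constant gene, was at 0 and 106 CPM in members and at 25.4 CPM in core members of library 2. The gamma-delta list summed to 141 and 287 CPM in members, against 45.3 and 126 CPM in resting cells. Dividing cells had 221.5 and 271 CPM for it, so the level was not particular to members. Of its 5 tested genes 1 was past 2-fold higher in members, beside 2.16% of all genes, and 0 in core members.

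Cell cycle genes set most members apart from dividing thymocytes. Against dividing cells, all 16 tested G2/M genes and 10 of 18 replication genes were past 2-fold lower in members and none was higher. Of all genes, 4.1% were lower and 3.15% higher. The direction reflects how the dividing class was defined. In core members the lower genes were 16 of 16 and 16 of 18, beside 7.57% of all genes. Against resting Rag1-positive cells none of 16 G2/M genes passed in either direction in both libraries, and the list's median was -0.65 in library 1 and 1.48 in library 2. In core members, where 10 of them had enough UMIs, it was -0.58 and -1.05 and 3 were lower, beside 8.16% of all genes. Mki67, the proliferation antigen, was at 23.5 and 170 CPM in members and at 32.5 and 31.0 CPM in core members, against 50.9 and 91.9 CPM in resting cells. The 14 dividing members of library 2 had 520 CPM, against 989 CPM in the dividing cells of that library.

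Against resting Rag1-positive cells, 7 of 20 tested E2F and retinoblastoma genes were past 2-fold lower in core members and 1 higher, beside 8.16% and 2.42% of all genes. The 7 were E2f2, E2f4, Tfdp2, Ccnd1, Ccnd3, Ccne2 and Cdkn2c. Of these only Ccnd3 had counting intervals apart in both libraries. In library 1, 16 of the 25 genes of the list had 0 UMIs in the 7 core members, which allows up to 97.4 CPM, so for most of them library 1 gives no direction. Among all 95 members, which include the dividing ones, only Ccnd1 and Ccnd3 of this list were past 2-fold lower, beside 5.73% of all genes. E2f2 was at 0 and 22.6 CPM in core members, against 96.2 and 78.3 CPM in resting cells and 211 and 160 CPM in dividing cells. E2f4, the E2F that binds promoters in resting cells, was at 32.5 and 16.9 CPM in core members, against 102 and 64.0 CPM in resting cells. Fibroblast-gated cells had E2f2 at 5.13 and 19.6 CPM and E2f4 at 21.9 and 25.7 CPM, so in library 2 the core members were near that level for both. E2f1 had 0 UMIs in core members of both libraries, and E2f8, a repressor induced at replication, had 0 and 2.82 CPM, against 169 and 82.1 CPM in dividing cells. Against dividing cells 11 of 25 were past 2-fold lower and 1 higher, beside 7.57% and 4.43% of all genes. E2f2 was the single lower gene with intervals apart in both libraries.

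Ccnd2, which couples growth signals to CDK4 and CDK6, was the single higher gene of the E2F and retinoblastoma list, at 705 CPM in library 1 members (476 to 1007) and 828 CPM in library 2 members (750 to 912). Resting Rag1-positive cells had 34.0 and 60.0 CPM and dividing cells 10.5 and 48.1 CPM, and fibroblast-gated cells 156 and 151 CPM. Ccnd3, the cyclin D of immature thymocytes, was at 282 and 279 CPM in members, against 872 and 691 CPM in resting cells. Against resting cells the log2 differences were 4.02 and 3.58 for Ccnd2 and -1.59 and -1.28 for Ccnd3, which did not pass 2-fold after thinning (-0.93). Ccnd1 had 0 and 2.00 CPM in members, against 17.0 and 25.6 CPM in resting cells, but 0 allows up to 70.5 CPM in library 1 members, so its direction there is not known.

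The helicase genes with E2F letters in the printed promoters were highest in dividing cells. Mcm3 was at 0 and 53.6 CPM in core members, against 17.0 and 53.6 CPM in resting Rag1-positive cells and 137 and 231 CPM in dividing cells. Mcm6 was at 64.9 and 53.6 CPM, against 50.9 and 63.2 CPM in resting cells and 211 and 245 CPM in dividing cells. In library 2 core members and resting cells therefore lay close together and below dividing cells for both, while in library 1 the core counts were too few to place them. The letters were found for 7 of 16 replication genes with a listed promoter (43.8%) and for 4 of 19 E2F and retinoblastoma genes (21.1%). They were found for none of 7 GIMAP and none of 11 exit genes. A gene with more than 1 listed promoter counts once if any of them matches, whereas the 1.56% given earlier is a share of promoters.

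Of 10 quiescence genes, 1 was past 2-fold higher in members than in resting Rag1-positive cells, namely Foxo1, and 5 were higher than in dividing cells. The shares of all genes were 2.16% and 3.15%. In core members 2 and 6 were higher, beside 2.42% and 4.43% of all genes. Slfn2, a schlafen gene needed for T cell quiescence, was at 494 and 315 CPM in members, against 221 and 185 CPM in resting cells and 31.6 and 38.9 CPM in dividing cells. Of the other GIMAP genes, GTPases clustered with Gimap4, 5 of 7 were higher in members than in resting cells, beside 2.16% of all genes. These were Gimap3, Gimap5, Gimap6, Gimap7 and Gimap8. Gimap6 was at 447 and 351 CPM in members, against 153 and 129 CPM.

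Interferon-stimulated genes were higher in members for 7 of 16 tested against resting Rag1-positive cells and 11 of 16 against dividing cells, beside 2.16% and 3.15% of all genes, and none was lower. Ifi47, an interferon-inducible GTPase, was at 235 and 106 CPM in members, against 17.0 and 27.2 CPM in resting cells. Ifit1, an antiviral RNA-binding protein, was at 188 and 57.9 CPM, against 11.3 and 14.4 CPM. Ifi27l2a was at 894 and 1032 CPM in members, against 67.9 and 277 CPM in resting cells, but fibroblast-gated cells had 832 and 913 CPM. Fibroblast-gated cells had Ifi47 at 34.4 and 29.9 CPM and Ifit1 at 49.5 and 70.0 CPM, and the part of free RNA in the member levels of these genes was not tested. Irf7, Isg20 and Usp18 were also among the genes that passed. Of 12 MHC class I presentation genes, Nlrc5, the transactivator of class I genes, passed against resting cells, with 165 and 35.9 CPM in members and 17.0 and 12.8 CPM in resting cells. H2-K1 was at 2187 and 882 CPM, against 408 and 480 CPM, and passed in core members (2.10 and 1.17).

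**Figure D5:**
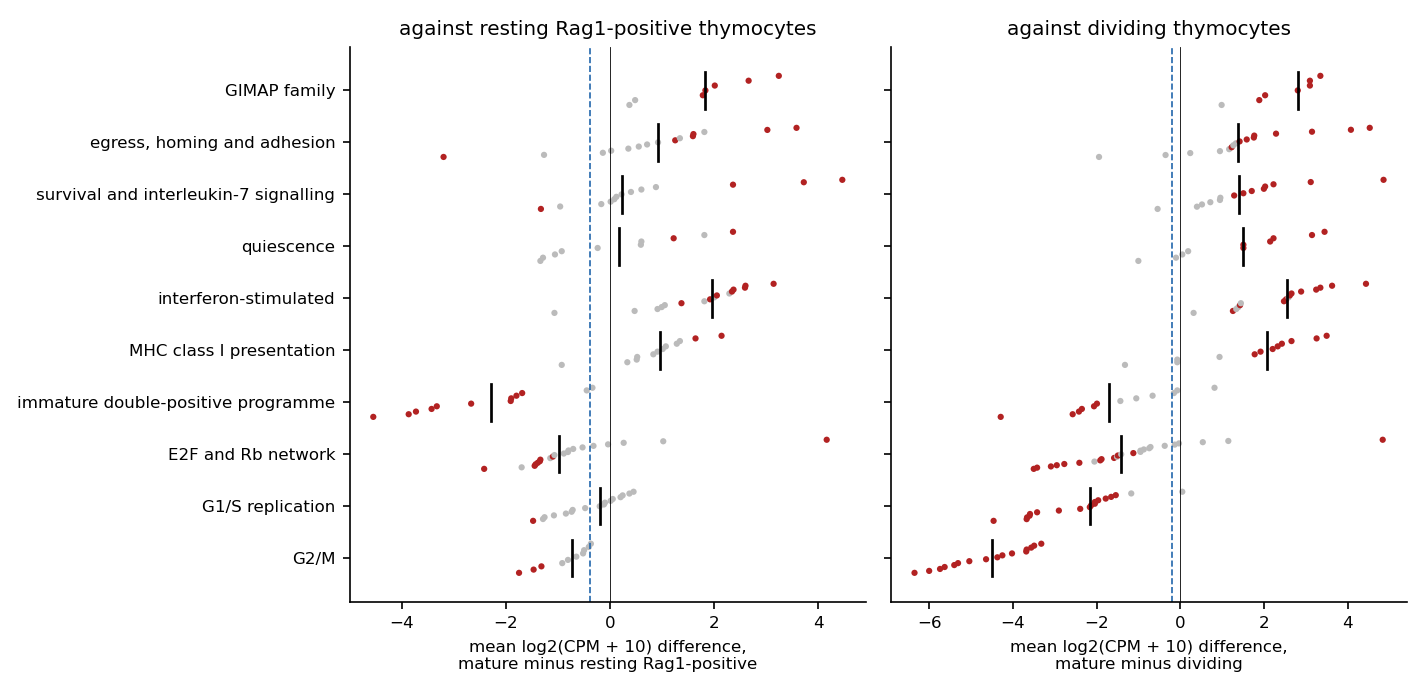
Mean over both libraries of the difference in log2(CPM + 10), core members minus resting Rag1-positive cells (left) and minus dividing cells (right), by gene list. Points are genes, red where 2-fold was passed the same way in both libraries, black bars are list medians and the dashed line is the median of all genes tested; among E2F and retinoblastoma genes Ccnd2 alone lies at the far right, and 16 of the 25 genes of that list had 0 UMIs in library 1 core members.

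The 14 dividing members of library 2 had lower levels of Ms4a4b, Gimap4 and Ccr7 than the core members. The selection read these genes and asks only for 2 mature genes at any depth, so this gap is not a finding. Ms4a4b was found in 10 of them at 168 CPM, against 920 CPM in core members, Gimap4 was at 28.1 CPM, against 347 CPM, and Ccr7 at 35.1 CPM, against 488 CPM. Stmn1, a tubulin regulator of dividing cells, was at 1685 CPM (1479 to 1912), against 257 CPM. Trac was found in 7 of the 14, with an interval of 64.2 to 182 CPM, against 674 CPM in core members (592 to 765), while Trdc was at 309 CPM (224 to 415), against 25.4 CPM (11.6 to 48.2). Tcrg-C4, a gamma chain constant gene, was at 274 CPM in 5 of the 14 cells, against 0 in core members of library 2. Il7r was at 56.2 CPM, against 260 CPM. The 3 deep cells named earlier, with 49196, 37889 and 14054 of their 142430 UMIs, weigh heavily in these sums, and whether such barcodes hold more than 1 cell was not tested.

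RNA of other lineages was low in core members, and part of this was set by the choice of cells. The selection limited Aire, Epcam and collagen, and cells with 2 or more endothelial genes were left out of the core. In library 2 the B cell list summed to 144 CPM, the fibroblast list to 192 CPM, the endothelial and mural list to 87.5 CPM, the erythroid list to 70.5 CPM, the epithelial list to 48.0 CPM and the myeloid list to 14.1 CPM, against 6921 CPM for the 6 leukocyte genes. In library 1 the erythroid, myeloid and epithelial lists were at 0. No core member held more than 3 genes of any 1 of these 6 other lineages. In library 2, 9 of 72 core members held 2 or more fibroblast genes and 4 held 2 or more B cell genes.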

How the data were processed

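Total CD45-negative thymic stroma was profiled in 2 libraries of 1 genotype. The authors deposited raw UMI counts for 32285 genes, made with Cell Ranger 6.0.0 per the file headers, although version 7 of that program, Seurat 4 and mm10 stand in the submitters' processing notes. Counts were summed over the cells of a class within each library, with 41075328 and 42583831 UMIs in all, and scaled to CPM with Python 3.11.15, numpy 2.4.6, scipy 1.17.1 and pandas 2.3.3. Genes needed 20 UMIs over the 4 sums, and a call needed a difference beyond 2-fold in log2(CPM + 10) the same way in both libraries. No p-values are given: cells are not replicates and selection read the same counts. Intervals at 95% are exact Poisson for sums and Clopper-Pearson for shares. Where the text says what a count of 0 allows, it takes 3 counts, which is below the upper end of the exact Poisson interval. No doublet caller was run. The members and all gene lists were chosen with earlier results of these data known, and the core members after seeing these counts. Named genes are the selection and label genes, up to 3 highest and 3 lowest of each list and its members past 2-fold, the 10 highest and 10 lowest over all genes, and the coreceptor lineage lists. Other genes named, such as Dcn, Stmn1 and Mcm3, were picked after their values were seen. The planned edgeR comparison of Cd4-gated with Cd8-gated members was not made, since library 1 had too few cells. The sums were checked on simulated counts. Alternatives changed the pseudocount, filters, depth, number of mature genes and libraries used. Some genes of the lists are not reported here.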

Additional observations from a re-analysis of the deposited data

How the results depend on the processing

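The counts of genes past 2-fold depended on the settings more than their directions did. Against resting Rag1-positive cells, 180 genes were higher and 478 lower in members. A pseudocount of 1 CPM gave 897 lower, 3 or more mature genes gave 732 lower, and thinning to 1000 UMIs gave 114 higher and 695 lower, with a median over all genes of -0.87 in place of -0.29. Leaving out cells with genes of another lineage, chosen after seeing the data, gave 186 higher and 463 lower of 6448 tested, with 273 of the 478 lower genes kept. Against dividing cells, 316 were higher and 411 lower. A pseudocount of 1 CPM gave 537 higher and 781 lower, and 3 or more mature genes gave 813 lower. Leaving out dividing and endothelial members gave 753 lower, and leaving out cells with genes of another lineage gave 705 lower, both chosen after seeing the data. With library 2 or library 1 alone, where agreement between libraries is no longer required, the counts against resting cells were 306 to 1239 higher and 949 to 2814 lower. Against dividing cells they were 480 to 1971 higher and 610 to 3121 lower. The share of members among cells with 2 or more T cell genes was 2.26% in library 1 and 4.52% with 1 or more mature genes. In library 2 it was 2.55%, with 1.70% at 3 or more mature genes, 5.98% at 1 or more, and 5.03% at 2000 UMIs and 5% mitochondrial UMIs. Of the named genes called, 53 of 63 were still called after thinning and 80 of 85 in core members. Id2 reversed after thinning, at -0.83, and the cause was not tested. No paired analysis was possible because library 1 had 4 Cd4-gated and 2 Cd8-gated members, too few for a test, and its other settings (DESeq2, other size factors and filters, a stricter gate, thinning and left-out replicates) were not run for the same reason. The 8 members of library 1 limit every statement that needs both libraries, since 0 UMIs there allows up to 70.5 CPM.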
